A study of Mus musculus with 19 samples.

Results

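The question here is which liver gene responses to pre-renal azotemia differ when interleukin-6 (IL-6) is missing. It was put to every gene as a difference of differences: the change from vehicle to azotemia in IL-6 -/- mice minus the same change in wild-type (WT) mice, called the interaction below. The contrast rests on 15 of the 19 libraries of the study, namely 4 WT vehicle, 4 WT azotemia, 4 IL-6 -/- vehicle and 3 IL-6 -/- azotemia libraries. The other 4 libraries, from WT mice labelled normal, entered the model only to help estimate the spread. All mice carried the C57BL/6 strain label, and both genotypes received 2 intraperitoneal injections 3 h apart, either of vehicle or of 4 mg furosemide, a loop diuretic that lowers body fluid volume. Liver was collected 6 h after the first dose and its poly(A) RNA was sequenced. Whether replicates came from different mice is not stated in the labels, and the p-values below reflect variation among these libraries, some of which may be technical. The labels give the knockout as IL-6 -/- with no tissue restriction, so the contrast does not single out the liver.

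IL-6 is a cytokine that binds its receptor together with gp130, and this complex activates JAK kinases and the transcription factor STAT3. In hepatocytes STAT3 works with C/EBP factors to raise the acute phase proteins, which are secreted into plasma during injury or infection. Glucocorticoids and interleukin-1, which acts through MyD88 and NF-kB, are the other classical inducers of the same programme.

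Each library held between 32073865 and 74041441 reads counted in genes. Il6 itself had too few reads to check the genotype labels, with 4, 0, 0 and 0 reads in WT vehicle, 2, 1, 0 and 3 in WT azotemia, 4, 1, 1 and 3 in knockout vehicle, and 3, 16 and 5 in knockout azotemia. The 12 hepatocyte markers, such as albumin, summed to between 91496 and 178112 CPM (gene counts as a rate of the library total, scaled by the TMM method) in every one of the 15 libraries. In a principal component plane, the first axis (35.3% of variance) parted the azotemia libraries (22.1 to 50.1) from the vehicle libraries (-39.1 to -21.6), and on the second (10.2%) the knockout azotemia libraries (26.5 to 33.2) lay apart from the WT azotemia libraries (-25.0 to -9.78).

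The response to azotemia differed between genotypes in 74 of 15570 genes tested (0.475%) by edgeR's quasi-likelihood test at a Benjamini-Hochberg adjusted p of 0.05 or less, and 68 of them responded lower in the knockout (0.437%) against 6 higher (0.0385%). In the same fit 3437 genes (22.1%) passed the test for the WT response and 2544 (16.3%) for the knockout response, 1594 of them in both with the same sign. The WT calls were rises in 9.74% and falls in 12.3% of genes tested, and the knockout calls rises in 7.96% and falls in 8.38%. A further 8 genes passed in both with opposite signs. The genotypes were close after vehicle, where 11 genes differed (0.0706%), and further apart under azotemia, where 591 did (3.8%). Of the 74 genes, 70 also differed between genotypes under azotemia and only S100a8 differed after vehicle. The interaction count depended on single libraries: it was 37 without IL-6 -/- azotemia replicate 2, 40 without WT vehicle replicate 2, 42 without WT azotemia replicate 3 and 43 without IL-6 -/- vehicle replicate 3.

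The genes fell into classes by what the WT and knockout fits showed. A response was termed reduced when the WT response and the interaction both passed the test with opposite signs, which held for 62 genes, 58 of them rises in WT (0.373% of genes tested) and 4 falls. It was termed kept when both genotypes responded with the same sign and the 95% interval of the interaction lay within 1 log2 unit of zero, which held for 1163 genes (7.47%), 553 rises (3.55%) and 610 falls (3.92%). Myd88, Lrrc8a and Smad1 met both definitions. The remaining 2215 WT responses were neither, so these libraries do not say whether they need IL-6. The interaction shares its libraries with the responses it compares, so these classes are a description and not a separate test.

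Among the 58 reduced rises, the knockout response was not called in 37, was a smaller rise in 14 and was a fall in 7. Their median change was 1.39 log2 units in WT and 0.21 in the knockout, against 0.55 and 0.61 for the 553 kept rises. Every WT azotemia library lay above every knockout azotemia library in 57 of the 58. The classes were set by differences between these same libraries, so this separation and the medians largely follow from their definitions. The share called reduced was largest for the largest WT rises. Of 65 rises of at least 3 log2 units, 11 were reduced and 1 was kept. Of 1021 rises under 1 log2 unit, 14 were reduced and 456 kept. The other 53 of those 65 were undetermined. Of the 65, 42 rose in the knockout too. The class rules favour this gradient: the loss of a small rise is harder to call, and the fixed margin of 1 log2 unit favours small rises as kept. Whether larger rises depend more on IL-6 was not tested.

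**Figure D1:**
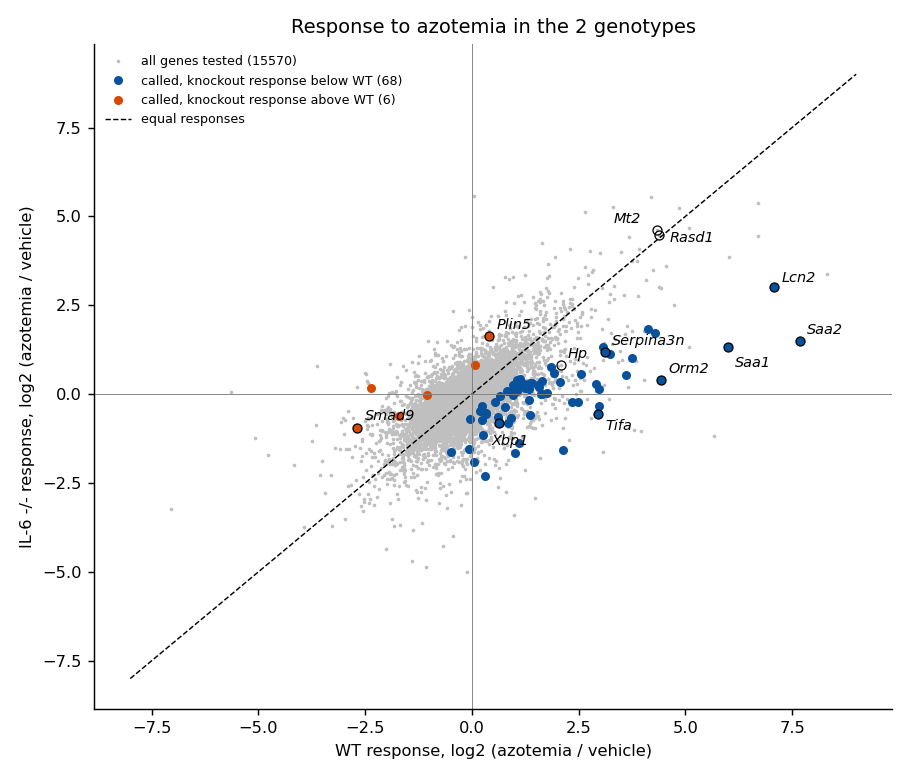
Response to azotemia of each of 15570 genes in WT (horizontal axis) and IL-6 -/- liver (vertical axis), both as log2 of azotemia over vehicle, with the dashed line marking equal responses. The 68 genes called lower in the knockout (blue) lie below the line, from Saa2 and Lcn2 at the right to Xbp1 near the centre, and the 6 called higher (orange) lie above it. Rasd1 and Mt2 are open circles near the line.

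Acute phase genes made up the largest reduced group. Of 34 tested members of a list of positive acute phase genes, 28 rose in WT, 12 rose in the knockout and none fell in either. Of all genes tested, 9.74% rose in WT and 7.96% in the knockout. The interaction was called below WT for 14 of 34 members, against 0.437% of all genes tested, and above WT for none. This list, like the others below, was chosen with earlier results of these data known, so such shares are a description and not a separate test. Its median over the list was -1.14 log2 units, against 0.03 over all genes. With single libraries left out the number called ranged from 9 to 17.

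The serum amyloid A genes, which encode lipoprotein-bound proteins of the early acute phase, moved furthest. Saa2 stood at 68.6, 21.8, 27.9 and 19.4 CPM in WT vehicle and at 7004, 6376, 9558 and 5446 CPM in WT azotemia, against 44.7, 14.98, 14.02 and 9.57 CPM in knockout vehicle and 47.9, 90.7 and 37.1 CPM in knockout azotemia. All 4 WT azotemia libraries were thus far above the other 11, while the knockout azotemia libraries overlapped knockout vehicle. Saa2 rose 206-fold in WT, and its knockout change of 1.49 log2 units did not pass (adjusted p = 0.068). The interaction was -6.19 ± 0.80 log2 units (SE, adjusted p = 0.0012). Saa1 rose 63.6-fold in WT and 2.5-fold in the knockout, with an interaction of -4.67 ± 0.55 (adjusted p = 0.00043). Saa1 and Saa2 are near-identical copies, so reads may be split unevenly between them. Saa3, which is also made by macrophages, had an interaction of -1.72 ± 0.76 that did not pass (adjusted p = 0.51), since knockout azotemia replicate 1 stood at 25.7 CPM and the other two at 3.72 and 4.33 CPM. Without that replicate the Saa3 interaction was -3.22 log2 units (adjusted p = 0.0060).

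Lcn2 encodes lipocalin 2, which binds bacterial siderophores and so withholds iron. It stood at 7.54, 6.11, 5.44 and 6.93 CPM in WT vehicle, 930, 833, 1041 and 725 CPM in WT azotemia, 9.61, 5.40, 4.14 and 2.46 CPM in knockout vehicle and 67.2, 37.2 and 27.0 CPM in knockout azotemia. The knockout libraries rose without overlap, 8.09-fold, yet stayed below every WT azotemia library, where the rise was 135-fold. The interaction was -4.06 ± 0.49 log2 units (adjusted p = 0.00043).

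The orosomucoids are plasma carrier proteins, and 2 of the 3 had a called interaction. Orm2 stood at 5.86, 7.32, 8.83 and 5.18 CPM in WT vehicle, 179, 146, 172 and 88.1 CPM in WT azotemia, 8.93, 8.16, 7.32 and 7.56 CPM in knockout vehicle and 14.5, 7.90 and 9.28 CPM in knockout azotemia. Every WT azotemia library exceeded all others, and the knockout groups overlapped. Orm2 rose 21.6-fold in WT, its knockout change was 0.40 log2 units (adjusted p = 0.30), and the interaction was -4.03 ± 0.36 (adjusted p = 1.3e-05). Orm1 rose 3.14-fold in WT, with an interaction of -1.29 ± 0.20 (adjusted p = 0.0019). Orm3 had an interaction of -2.37 ± 0.70 that did not pass (adjusted p = 0.21). The 3 genes are close copies of each other.

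Serpina3n, a serine protease inhibitor of the antichymotrypsin family, showed a partial loss and had the smallest interaction adjusted p of the genes named here. It stood at 719, 631, 617 and 585 CPM in WT vehicle, 5349, 4530, 7389 and 4844 CPM in WT azotemia, 482, 518, 510 and 469 CPM in knockout vehicle and 1131, 1158 and 1093 CPM in knockout azotemia. No 2 of these groups overlapped. The rise was 8.66-fold in WT and 2.28-fold in the knockout, both past the test, and the interaction was -1.93 ± 0.18 log2 units (adjusted p = 3.4e-06). Its neighbour in the family, Serpina3m, was kept: it rose by 1.40 log2 units in WT and 0.90 in the knockout (interaction adjusted p = 0.43).

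The fibrinogen chains, the clotting substrate of plasma, changed by nearly equal amounts. Fgb stood at 7323, 6927, 7696 and 5640 CPM in WT vehicle, 15570, 14966, 21131 and 16378 CPM in WT azotemia, 8588, 5755, 7024 and 5561 CPM in knockout vehicle and 8729, 7349 and 7153 CPM in knockout azotemia. The WT groups did not overlap and the knockout groups did. The interactions of Fga, Fgb and Fgg were -1.05 ± 0.22, -1.10 ± 0.23 and -1.09 ± 0.22 log2 units, each with an adjusted p of 0.025. The call was lost in 8 of 24 alternative settings for each of them, all 8 the same settings, among them the omission of WT vehicle replicate 2 or 4, WT azotemia replicate 3, knockout vehicle replicate 1 or 3, or knockout azotemia replicate 2 or 3.

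Other members of the acute phase list followed the same direction. Itih4, an inter-alpha-trypsin inhibitor heavy chain, rose by 1.33 log2 units in WT against 0.16 in the knockout (interaction adjusted p = 0.00013). Serpina10, the protein Z-dependent protease inhibitor, rose by 1.33 in WT against -0.17 in the knockout (interaction adjusted p = 0.00038), and Steap4, a metalloreductase, by 2.92 against 0.29 (interaction adjusted p = 0.0016). These 3 calls held in all 24 alternative settings. Lrg1, a leucine-rich glycoprotein, and Hpx, the heme scavenger hemopexin, had interactions of -1.09 and -1.29 log2 units (adjusted p = 0.036 and 0.033), and these calls were lost in 12 and 14 of the 24 settings.

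Haptoglobin, the hemoglobin scavenger encoded by Hp, varied widely between the knockout azotemia libraries. It stood at 2945, 3570, 3370 and 4032 CPM in WT vehicle, 15332, 14407, 16743 and 12221 CPM in WT azotemia, 5786, 4636, 3708 and 3794 CPM in knockout vehicle and 12091, 5836 and 5596 CPM in knockout azotemia. Knockout azotemia replicate 1 lay just below the WT azotemia range and the other two near the top of the knockout vehicle range, which they overlapped. The interaction of -1.27 ± 0.30 log2 units missed the threshold (adjusted p = 0.062) and passed without that replicate (-1.73 log2 units, adjusted p = 0.00038). Hpx was also highest in the same replicate, at 6582 CPM against 3370 and 2898 CPM.

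Some acute phase genes responded alike within the interval set for kept responses. Saa4, the constitutive serum amyloid A, rose 2.92-fold in WT and 2.96-fold in the knockout. Lbp, the lipopolysaccharide-binding protein, and Agt, the angiotensin precursor, were also kept, with interactions of -0.35 and -0.13 log2 units (adjusted p = 0.81 and 0.92). Saa4, Lbp, Agt and Serpina3m were the 4 kept members of the list. Cd14, the lipopolysaccharide co-receptor, rose by 2.2 and 1.78 log2 units, but its interval of -1.18 to 0.33 was too wide for the kept class. Hamp, which encodes the iron hormone hepcidin, passed in neither genotype (0.68 in WT and 0.45 in the knockout).

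**Figure D2:**
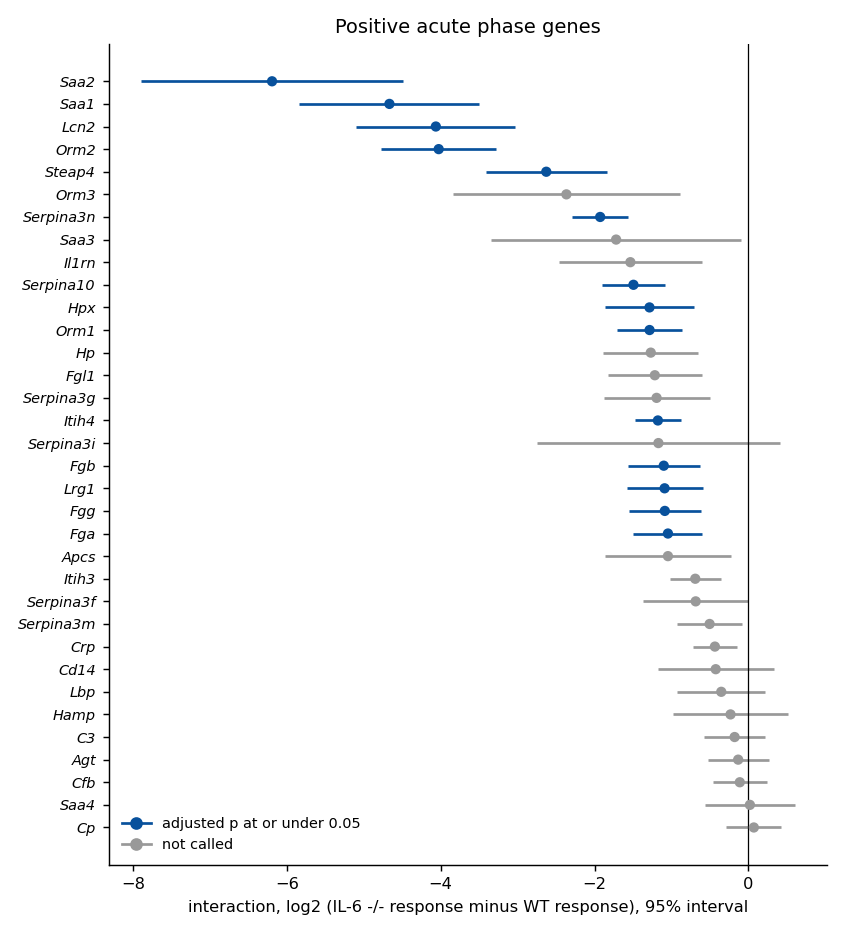
Interaction of each of 34 positive acute phase genes, as log2 of the IL-6 -/- response minus the WT response, with 95% intervals. The 14 called genes (blue) run from Saa2 at -6.19 to Fga at -1.05, and 32 of the 34 point estimates lie below zero.

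**Figure D3:**
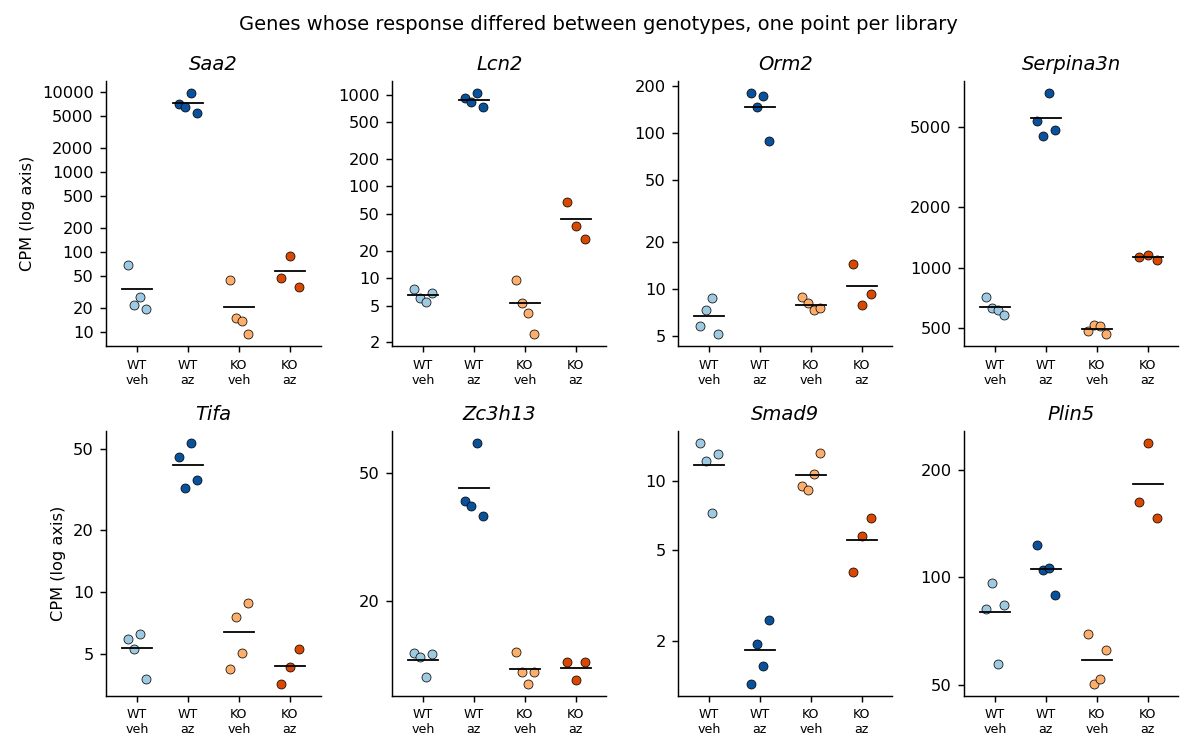
CPM of 8 genes with a called interaction in each of the 15 libraries, on log axes that differ between panels, with a bar at each group's mean. WT azotemia stands above the other groups for Saa2, Lcn2, Orm2, Serpina3n, Tifa and Zc3h13, below them for Smad9, and Plin5 is highest in IL-6 -/- azotemia.

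Promoters of reduced and kept rises were compared for sequences that the factors above are known to bind. RefSeq windows (GRCm38.p6, 250 bases before to 50 after a start) were found for 44 of the 58 reduced rises, 435 of 553 kept rises and 11230 of 15564 tested gene symbols. Windows on 1 chromosome were left out of the search, so genes there count as having none. The STAT motif TTCNNNGAA, searched on both strands, was in 22.7% of the reduced rises, 8.74% of the kept rises and 8.46% of all tested genes with a window. The C/EBP motif TTGCNNAA was in 27.3%, 9.66% and 10.6%. Both motifs occurred in 1 window for 5 reduced rises (11.4%), against 1 kept rise (0.23%) and 0.89% of all. The loose NF-kB motif, GGG and CC with 5 bases between them, was in 68.2%, 77.9% and 70.7%. The glucocorticoid receptor motif, GNACA and TGTNC with 3 bases between them, was in 2.27%, 0.23% and 0.401%. For this last motif, the shares of reduced and of kept rises rest on 1 gene each. Matches to the STAT, C/EBP and glucocorticoid receptor motifs do not overlap each other in the windows printed here. The shares describe letters only, and binding was not measured.

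The 250 bases before the start are shown for 7 reduced acute phase genes because they carry these motifs, with matches to the STAT, C/EBP or glucocorticoid receptor motif in capitals. Fga (chr3:83025903-83026152, plus strand), Fgb (chr3:83049864-83050113, minus strand) and Steap4 (chr5:7960222-7960471, plus strand) hold a STAT and a C/EBP match, with the STAT match ending 226, 154 and 108 bases before the start. Itih4 (chr14:30886226-30886475, plus strand) holds a STAT match 43 bases before it. Orm2 (chr4:63362199-63362448, plus strand) and Saa2 (chr7:46751583-46751832, plus strand) hold a C/EBP match, and Serpina3n (chr12:104406458-104406707, plus strand) a glucocorticoid receptor match 66 bases before its start.
Fga: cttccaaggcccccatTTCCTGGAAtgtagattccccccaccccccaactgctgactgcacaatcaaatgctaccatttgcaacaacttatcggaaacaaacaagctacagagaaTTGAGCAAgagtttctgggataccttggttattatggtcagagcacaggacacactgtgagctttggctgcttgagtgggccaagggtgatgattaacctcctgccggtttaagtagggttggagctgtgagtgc
Fgb: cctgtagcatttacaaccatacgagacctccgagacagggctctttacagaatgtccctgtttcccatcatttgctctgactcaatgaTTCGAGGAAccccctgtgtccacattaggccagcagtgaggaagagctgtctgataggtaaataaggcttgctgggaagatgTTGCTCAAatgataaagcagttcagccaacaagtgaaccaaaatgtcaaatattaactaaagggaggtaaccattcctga
Steap4: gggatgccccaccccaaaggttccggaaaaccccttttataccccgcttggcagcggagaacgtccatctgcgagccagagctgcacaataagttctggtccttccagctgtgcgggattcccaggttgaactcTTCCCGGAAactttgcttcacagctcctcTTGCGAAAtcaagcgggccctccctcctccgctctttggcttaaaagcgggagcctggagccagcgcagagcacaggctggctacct
Itih4: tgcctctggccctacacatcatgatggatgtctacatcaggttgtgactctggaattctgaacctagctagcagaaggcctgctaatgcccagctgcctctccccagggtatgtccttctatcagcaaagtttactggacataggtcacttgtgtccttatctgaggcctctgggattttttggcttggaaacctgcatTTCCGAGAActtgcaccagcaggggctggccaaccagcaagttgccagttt
Orm2: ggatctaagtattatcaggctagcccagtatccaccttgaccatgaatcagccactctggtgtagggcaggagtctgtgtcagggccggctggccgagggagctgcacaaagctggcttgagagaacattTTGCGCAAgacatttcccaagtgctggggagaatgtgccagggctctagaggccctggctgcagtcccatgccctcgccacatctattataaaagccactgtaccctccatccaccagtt
Saa2: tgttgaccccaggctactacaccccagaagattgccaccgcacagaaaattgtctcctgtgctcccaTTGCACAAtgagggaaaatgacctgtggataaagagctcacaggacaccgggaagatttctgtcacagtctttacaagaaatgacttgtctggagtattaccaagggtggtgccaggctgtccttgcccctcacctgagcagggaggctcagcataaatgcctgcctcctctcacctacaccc
Serpina3n: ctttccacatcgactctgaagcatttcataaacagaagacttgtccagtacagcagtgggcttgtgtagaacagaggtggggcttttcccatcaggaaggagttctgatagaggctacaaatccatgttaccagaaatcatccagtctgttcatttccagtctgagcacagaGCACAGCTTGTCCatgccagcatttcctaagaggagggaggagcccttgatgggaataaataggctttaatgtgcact

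Innate sensing genes included reduced, kept and undetermined responses. Of 31 tested members of the innate sensing and NF-kB list, 15 rose and 3 fell in WT, 8 rose and 3 fell in the knockout, and 3 had a called interaction, all lower, against 0.437% of all genes tested called lower. The list's median interaction was -0.05 log2 units. Of all genes tested, 9.74% rose and 12.3% fell in WT, and 7.96% rose and 8.38% fell in the knockout. Tifa, an adaptor that links bacterial sugar sensing to TRAF6 and NF-kB, stood at 5.92, 5.29, 6.26 and 3.78 CPM in WT vehicle, 45.3, 32.2, 53.3 and 34.9 CPM in WT azotemia, 4.23, 7.53, 5.03 and 8.85 CPM in knockout vehicle and 3.57, 4.28 and 5.27 CPM in knockout azotemia. All WT azotemia libraries were above the other 11, and the knockout groups overlapped. The WT rise was 7.79-fold, the knockout change was -0.55 log2 units (adjusted p = 0.15), and the interaction was -3.52 ± 0.34 (adjusted p = 2.0e-05). Alpk1, the kinase that acts upstream of TIFA, rose by 2.34 log2 units in WT against -0.21 in the knockout. Its adjusted p of 0.028 was lost in 12 of 24 alternative settings, and its level stayed between 0.233 and 3.21 CPM.

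Myd88, the adaptor of interleukin-1 and Toll-like receptors, rose by 0.999 log2 units in WT and 0.25 in the knockout, with an interaction of -0.75 ± 0.11 (adjusted p = 0.0012). It thus met both the reduced and the kept definition. Nfkbia, the inhibitor that NF-kB itself induces, rose by 1.06 and 1.03 log2 units, and Nfkbiz by 1.22 and 1.55, and both were kept without a called interaction. Il1r1, the interleukin-1 receptor, rose by 2.21 log2 units in WT and 1.91 in the knockout. Its interaction interval of -1.25 to 0.63 left it undetermined.

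Cytokine receptors outside these lists were among the reduced rises, and were named after their values were seen. Il17ra, the interleukin-17 receptor, stood at 17.3 to 26.1 CPM in WT vehicle, 46.7 to 74.4 in WT azotemia, 17.7 to 21.8 in knockout vehicle and 20.9 to 25.5 in knockout azotemia, so only WT azotemia stood apart. Its interaction was -1.37 ± 0.20 log2 units (adjusted p = 0.0010). Tnfrsf1a, the main tumour necrosis factor receptor, rose by 1.08 log2 units in WT against 0.17 in the knockout (interaction adjusted p = 0.0033), and Il13ra1, an interleukin-13 receptor chain, by 1.07 against 0.27 (interaction adjusted p = 0.019).

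Components of the IL-6 pathway itself were tested as a list. Of 26 tested genes of the receptor, JAK, STAT3 and feedback list, 12 rose and 3 fell in WT, 8 rose and 3 fell in the knockout, and 1 had a called interaction, Ptpn2, a phosphatase that acts on JAK and STAT proteins (-0.72 ± 0.15 log2 units, adjusted p = 0.024, lost in 7 of 24 settings). That is 3.85% of the list, against 0.475% of all genes tested. The shares of all genes that rose and fell were 9.74% and 12.3% in WT, and 7.96% and 8.38% in the knockout. DESeq2 and limma-voom each called 2 members, 7 had an unadjusted p under 0.05, and the list's median interaction was -0.20. Socs3, the feedback inhibitor that STAT3 induces, stood at 21.0, 14.6, 24.3 and 16.2 CPM in WT vehicle, 54.0, 82.4, 88.6 and 56.4 CPM in WT azotemia, 25.5, 11.5, 8.66 and 14.2 CPM in knockout vehicle and 17.1, 16.6 and 19.4 CPM in knockout azotemia. Its WT groups did not overlap and its knockout groups did, yet the interaction of -1.64 ± 0.58 did not pass (adjusted p = 0.37). Stat3 was kept, at 0.92 and 0.78 log2 units. Il6ra, the IL-6 receptor, changed by 0.68 log2 units in WT (adjusted p = 0.12) and rose by 1.16 in the knockout, with an interaction of 0.49 (adjusted p = 0.85).

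Reduced rises also included genes outside the acute phase and signalling lists. Zc3h13, a subunit of the RNA m6A methylation complex, stood at 13.8, 13.5, 11.7 and 13.8 CPM in WT vehicle, 40.8, 39.6, 62.0 and 36.6 CPM in WT azotemia, 13.9, 12.1, 11.1 and 12.1 CPM in knockout vehicle and 13, 11.4 and 13 CPM in knockout azotemia. The 4 WT azotemia libraries stood alone, and the knockout groups overlapped (0.02 log2 units, adjusted p = 0.94). The interaction was -1.74 ± 0.19 (adjusted p = 3.1e-05). Prg4, the lubricant proteoglycan 4, rose by 2.07 log2 units against 0.34 (interaction adjusted p = 5.8e-05). Slc41a1, a magnesium transporter, rose by 1.62 against 0.02 (interaction adjusted p = 0.00042).

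B3galt1, a galactosyltransferase, had 16 to 26.7 CPM in WT vehicle, 137 to 181 in WT azotemia, 13.3 to 18.6 in knockout vehicle and 11 to 21.9 in knockout azotemia. Only WT azotemia stood apart, and the interaction was -2.83 ± 0.43 log2 units (adjusted p = 0.0046). Syt12, a synaptotagmin, had an interaction of -3.07 ± 0.52 (adjusted p = 0.0065). Slc13a5, the hepatic citrate transporter, had one of -2.71 ± 0.50 (adjusted p = 0.012), and Arid5a, an RNA-binding protein that stabilises cytokine transcripts, one of -1.99 ± 0.37 (adjusted p = 0.017). Sebox, a homeobox gene, rose in both genotypes, by 4.12 and 1.83 log2 units, and its interaction (adjusted p = 0.031) was lost in 14 of 24 settings. Cldn14, a tight junction claudin, also rose in both, by 3.07 and 1.32 log2 units (interaction adjusted p = 0.0078), and Abca1, the cholesterol exporter, by 0.99 in WT against 0.22 (interaction adjusted p = 0.017). Lrrc8a, a volume-regulated anion channel subunit, rose by 1.126 and 0.43 log2 units (interaction adjusted p = 0.0015).

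In a subset of genes the knockout response was a fall. Xbp1, a transcription factor of the unfolded protein response, stood at 151, 159, 182 and 171 CPM in WT vehicle, 229, 228, 298 and 278 CPM in WT azotemia, 177, 96.5, 167 and 160 CPM in knockout vehicle and 74.3, 98.5 and 84.7 CPM in knockout azotemia. It rose in WT without overlap and fell in the knockout, where 1 vehicle library lay inside the azotemia range. The interaction was -1.45 ± 0.26 log2 units (adjusted p = 0.012). The unfolded protein and integrated stress list had a median interaction of -0.05. Against 0.475% of all genes tested, Xbp1 was the 1 called gene of the 28 in that list (3.57%). Hspa5, an endoplasmic reticulum chaperone, rose by 0.60 log2 units in WT and changed by 0.30 in the knockout (interaction adjusted p = 0.80). Herpud1, an endoplasmic reticulum degradation factor, was kept at 1.01 and 1.37.

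Of 17 falls that were larger in the knockout, 7 were also reduced rises such as Xbp1, and 9 did not pass in WT. Asb2, a ubiquitin ligase subunit, changed by 0.06 log2 units in WT and fell by 1.92 on the log2 scale in the knockout (interaction adjusted p = 0.025). Irgm1, an interferon-induced GTPase, changed by 0.32 in WT and fell by 0.56 in the knockout (interaction adjusted p = 0.022). Cldn2, the claudin of cation-permeable junctions, fell in both, by 0.49 and 1.62 (interaction adjusted p = 0.023). These 3 calls were lost in 8, 5 and 6 of the 24 alternative settings.

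The opposite pattern, a knockout response above that of WT, was seen in 6 genes. Smad9, a receptor-activated SMAD of bone morphogenetic protein signalling, stood at 14.7, 12.2, 7.2 and 13.1 CPM in WT vehicle, 1.29, 1.94, 1.55 and 2.46 CPM in WT azotemia, 9.51, 9.07, 10.7 and 13.2 CPM in knockout vehicle and 3.98, 5.76 and 6.86 CPM in knockout azotemia. It fell without overlap in both genotypes, 6.41-fold in WT and 1.92-fold in the knockout. The interaction was 1.74 ± 0.35 log2 units (adjusted p = 0.025), and the call was lost in 12 of 24 alternative settings, with an adjusted p of up to 0.20, 9 of them the omission of 1 library. Within the list of 24 BMP-SMAD and hepcidin genes, Smad9 was the 1 member called higher, and Smad1, a related SMAD, the 1 called lower. Together they are 8.33% of the list, against 0.475% of all genes tested. DESeq2 called 2 members and limma-voom 1, and 3 had an unadjusted p under 0.05. Smad1 rose by 1.05 log2 units in WT and 0.39 in the knockout (interaction adjusted p = 0.021). Bmp6, a ligand of the pathway, fell by 1.04 in WT and changed by -0.35 in the knockout (interaction adjusted p = 0.28).

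Plin5, which coats lipid droplets in oxidative tissue, rose past the test in the knockout alone. It stood at 81.5, 96.7, 57.3 and 83.8 CPM in WT vehicle, 123, 105, 106 and 89.4 CPM in WT azotemia, 69.3, 50.3, 51.9 and 62.6 CPM in knockout vehicle and 163, 239 and 147 CPM in knockout azotemia. The knockout azotemia libraries were the highest 3 of the 15. The interaction was 1.24 ± 0.25 log2 units (adjusted p = 0.026) and was lost in 11 of 24 settings. Zfp703, a zinc finger repressor, behaved likewise with 0.75 ± 0.15 (adjusted p = 0.025, lost in 9). Txnl4b, a thioredoxin-like splicing protein, and Ttl, the tubulin tyrosine ligase, were falls reduced in the knockout, with interactions of 1.08 and 1.01 log2 units (adjusted p = 0.033 and 0.025, lost in 14 and 11 settings). The sixth, Nat8f6, an acetyltransferase relative, stayed under 1 CPM in every library of the 4 groups.

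Plin5 was the 1 called member of 28 PPAR-alpha and fatty acid oxidation genes, of which 10 fell and none rose in WT while 1 rose and 1 fell in the knockout. That is 3.57% of the list, against 0.475% of all genes tested. The shares of all genes that rose and fell were 9.74% and 12.3% in WT, and 7.96% and 8.38% in the knockout. DESeq2 called 3 members and limma-voom 1, 7 had an unadjusted p under 0.05, and the list's median interaction was 0.22 log2 units. Cyp4a10, a fatty acid hydroxylase and PPAR-alpha target, stood at 159, 101, 137 and 418 CPM in WT vehicle, 26.2, 32.2, 45.1 and 42.2 CPM in WT azotemia, 147, 192, 138 and 152 CPM in knockout vehicle and 165, 214 and 315 CPM in knockout azotemia. It fell in WT without overlap and its knockout groups overlapped, but the interaction of 3.04 ± 0.66 did not pass (adjusted p = 0.061). It passed in 4 of the 24 alternative settings. Cyp4a14, its close relative, had an interaction of 4.41 ± 1.09 (adjusted p = 0.12). The acyl-CoA thioesterase genes Acot1 and Acot4 had interactions of 1.25 and 1.23 log2 units, which did not pass either, and G0s2, a lipase inhibitor, fell in both genotypes, by 2.81 and 1.76.

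Kept responses were led by Rasd1, a small GTPase induced by dexamethasone. It stood at 0.807, 0.389, 0.387 and 0.582 CPM in WT vehicle, 11.8, 12.7, 13.2 and 8.88 CPM in WT azotemia, 0.370, 0.763, 0.687 and 0.626 CPM in knockout vehicle and 12.1, 15.3 and 13.6 CPM in knockout azotemia. Both genotypes rose without overlap, 21.0-fold and 22.2-fold, and the azotemia groups overlapped each other. The interaction was 0.08 log2 units with an interval of -0.66 to 0.83. The next largest kept rises were Cabyr, a calcium-binding protein of sperm (2.34 and 2.53 log2 units), Adamts15, a matrix protease (2.29 and 2.55), and Cebpd (2.28 and 2.04). Lhfpl2, a membrane protein, and Zfp324, a zinc finger gene, were the largest kept falls, at -2.26 and -2.37 for the first and -2.2 and -2.21 for the second. Btbd19, Slc38a2, an amino acid transporter, Ctla2a, a cathepsin inhibitor, and Rcan1, the calcineurin regulator, rose by 1.99 to 2.27 log2 units in WT and 1.56 to 2.45 in the knockout.

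The C/EBP factors that act on acute phase promoters were among the kept rises. Cebpb stood at 153, 183, 191 and 181 CPM in WT vehicle, 660, 644, 662 and 608 CPM in WT azotemia, 172, 134, 147 and 135 CPM in knockout vehicle and 437, 474 and 418 CPM in knockout azotemia. It rose 3.64-fold in WT and 3.01-fold in the knockout, without overlap in either, and the interaction of -0.27 log2 units had an interval of -0.58 to 0.04. Every knockout azotemia library still lay below every WT azotemia library. Pim3, a kinase of the same list, rose by 1.65 and 1.53 log2 units, while Bcl3, a nuclear I-kB protein, rose by 1.75 and 0.95 and was undetermined (interaction adjusted p = 0.42).

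Glucocorticoid targets responded in both genotypes. Of 24 tested members of that list, 20 rose and 1 fell in WT, 22 rose and none fell in the knockout, and none had a called interaction by edgeR (4 at an unadjusted p under 0.05), 1 by DESeq2 and 0 by limma-voom. The median interaction was 0.19 log2 units, and 4 members were kept. Another 17 were undetermined, so for most of the list these libraries do not say whether the response needs IL-6. Of all genes tested, 9.74% rose in WT, 7.96% rose in the knockout, 7.47% were kept and 0.475% had a called interaction. Mt1 and Mt2, the metallothioneins that bind zinc, rose 13.4-fold and 20.2-fold in WT and 13.5-fold and 24.4-fold in the knockout. Their interactions were 0.00 and 0.28 log2 units, and their intervals of -1.08 to 1.08 and -0.93 to 1.48 were too wide for the kept class. Tat, the tyrosine aminotransferase, rose by 2.16 and 2.2 log2 units. Ddit4, an inhibitor of mTORC1, rose by 4.54 and 3.59, and Fkbp5, a chaperone of the glucocorticoid receptor, by 1.17 and 1.76. Lpin1, a phosphatidate phosphatase, differed most among those named, at 0.80 and 2.22 log2 units, without passing (interaction adjusted p = 0.17). The list is defined by known targets, and steroid levels were not part of these data.

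No gene of 3 stress and catabolic lists had an interaction called by edgeR, against 0.475% of all genes tested. At that share, lists of this size can hold no called gene without differing from other genes. Of all genes tested, 9.74% rose in WT, 7.96% rose in the knockout and 7.47% were kept. An unadjusted p under 0.05 for the interaction was reached by 8.94%. Of 31 immediate early and MAP kinase feedback genes, 18 rose in WT and 21 in the knockout, 6 were kept and 13 were undetermined. Their median interaction was 0.39 log2 units, with 3 members at an unadjusted p under 0.05 and 0 called by DESeq2 or limma-voom. Jun rose by 1.47 and 2.41 and Fosl2 by 1.01 and 1.71, neither interaction passing. Of 27 urea cycle and amino acid catabolism genes, 12 rose in WT, 17 rose in the knockout and 8 were kept, with 2 interactions at an unadjusted p under 0.05 and 0 called by DESeq2 or limma-voom. The kept genes included Slc25a15, the mitochondrial ornithine carrier (1.02 and 1.127), and Sdsl, a serine dehydratase relative (1.18 and 1.18). Of 18 genes of gluconeogenesis, fasting and insulin action, 6 rose in WT and 10 in the knockout, with 2 interactions at an unadjusted p under 0.05, 1 called by DESeq2 and 0 by limma-voom. Igfbp1, an insulin-like growth factor binding protein, rose by 4.24 and 3.48. Foxo3, a fasting-activated transcription factor, rose by 0.38 and 1.11 (interaction adjusted p = 0.069).

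**Figure D4:**
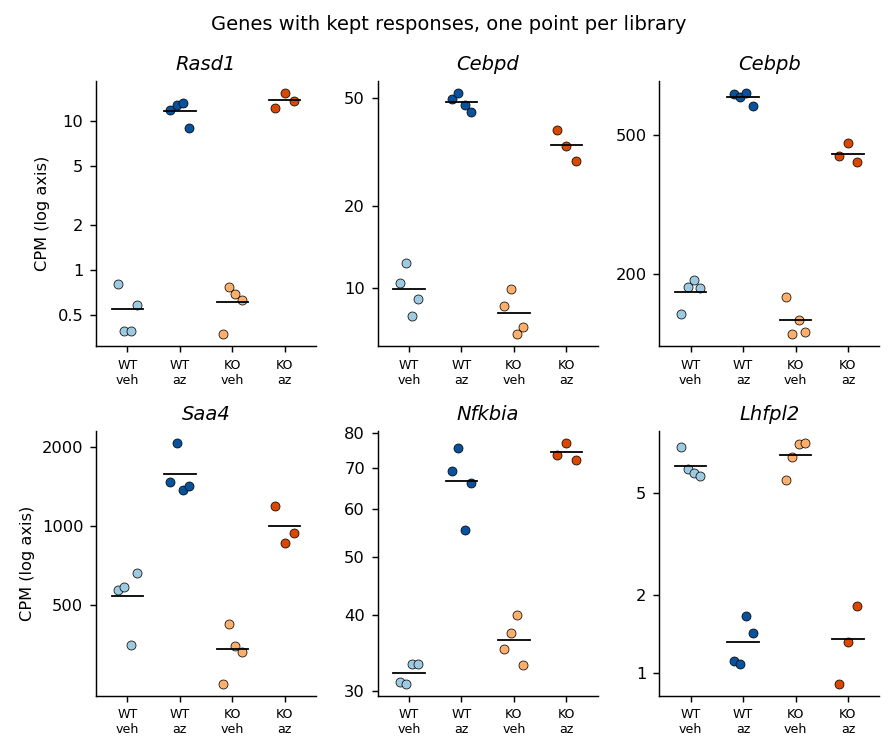
CPM of 6 genes of the kept class in each of the 15 libraries, on log axes that differ between panels, with a bar at each group's mean. Vehicle and azotemia libraries do not overlap within either genotype, and all genes but Lhfpl2 rise.

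Interferon, complement and chemokine lists had negative median interactions. All 29 tested interferon response genes had a negative interaction, with a median of -0.63 log2 units, against 0.03 over all genes. None was called by edgeR (16 at an unadjusted p under 0.05), 3 by DESeq2 and 2 by limma-voom. Irgm1, whose called interaction is given above, is outside this list. In WT 5 rose and 2 fell, and in the knockout none rose and 11 fell. Over all genes tested, 9.74% rose and 12.3% fell in WT, and 7.96% rose and 8.38% fell in the knockout. Iigp1, an interferon-induced GTPase, stood at 207 to 252 CPM in WT vehicle, 183 to 266 in WT azotemia, 220 to 361 in knockout vehicle and 94.6 to 168 in knockout azotemia. The knockout azotemia libraries lay below all others, with an interaction of -1.05 ± 0.24 (adjusted p = 0.051), which passed in 9 of 24 alternative settings. Ifit2 and Irf9 had interactions of -1.06 and -0.60 log2 units. Of 23 complement genes 11 rose in WT, among them C4b by 0.55 log2 units, none rose in the knockout, and none had a called interaction by edgeR, DESeq2 or limma-voom (3 at an unadjusted p under 0.05, median -0.22). Of 15 tested chemokine and adhesion genes, 10 had a negative interaction, with a median of -0.62 log2 units. In WT 4 of them rose and 1 fell, and in the knockout 3 rose and 2 fell. None had a called interaction by edgeR (4 at an unadjusted p under 0.05), 1 by DESeq2 and 0 by limma-voom. For comparison, 1392 of all genes tested (8.94%) reached an unadjusted p under 0.05.

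Some markers of blood cells moved with the same contrast. Of 9 tested neutrophil markers, 8 rose in WT, 3 rose in the knockout, and 1 had a called interaction, S100a8, a calcium-binding alarmin (-2.74 ± 0.45 log2 units, adjusted p = 0.0033). That is 11.1% of the list, against 0.475% of all genes tested, of which 9.74% rose in WT and 7.96% in the knockout. DESeq2 called 3 members and limma-voom 1, 6 had an unadjusted p under 0.05, and their median interaction was -1.71. S100a8 stood at 0.327, 0.218, 0.224 and 0.200 CPM in WT vehicle, 3.52, 3.79, 3.13 and 2.98 CPM in WT azotemia, 1.31, 0.860, 1.32 and 0.972 CPM in knockout vehicle and 3.82, 1.78 and 1.08 CPM in knockout azotemia. Knockout vehicle lay above WT vehicle (2.16 log2 units, adjusted p = 0.0091), and 1 knockout azotemia library lay above the WT azotemia range. The summed level of the 9 markers was 1.65 to 3.71 CPM in WT vehicle, 13.2 to 15.03 in WT azotemia, 5.23 to 7.04 in knockout vehicle and 5.14 to 14.6 in knockout azotemia. Lcn2, which neutrophils also make, is not among these markers, and the part of neutrophils in its rise was not tested.

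Retnlg and S100a9, both of neutrophil granules, had interactions of -3.74 and -2.13 log2 units that did not pass (adjusted p = 0.12 and 0.12). The 10 monocyte markers had a median interaction of -1.20 log2 units. EdgeR called 1 of them (10% of the list, against 0.475% of all genes tested), DESeq2 2 and limma-voom 1, and 5 had an unadjusted p under 0.05. Their summed level was 35.5 to 58.7 CPM in WT azotemia and 37.8 to 51.5 in knockout azotemia, so the groups overlapped. The leukocyte membrane genes Ms4a4c and Ms4a6d also had called interactions (-2.61 and -1.64), lost in 16 and 12 alternative settings. Ms4a4c changed by 0.31 log2 units in WT (adjusted p = 0.58) and by -2.30 in the knockout. It did not pass the alternative filter of 1 CPM in 3 libraries. Ms4a6d rose by 1.63 log2 units in WT and changed by -0.01 in the knockout. All 13 Kupffer cell markers had negative interactions (median -0.48), with none called by edgeR, DESeq2 or limma-voom and 0 at an unadjusted p under 0.05, and their summed level was 392 to 570 CPM in WT azotemia and 363 to 452 in knockout azotemia. All 8 B cell markers also had negative interactions (median -0.48), with median responses of -0.91 in WT and -1.85 in the knockout. In WT 3 of them fell and in the knockout 6, against 12.3% and 8.38% of all genes tested. None of the 8 had an interaction called by edgeR or limma-voom, DESeq2 called 1 and 1 had an unadjusted p under 0.05. Their summed level was 6.79 to 11.7 CPM in WT azotemia and 3.98 to 8.46 in knockout azotemia, so the groups overlapped. In these bulk libraries fewer cells of a type and less RNA per cell cannot be told apart, and the part of these cells in the results above was not tested.

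**Figure D5:**
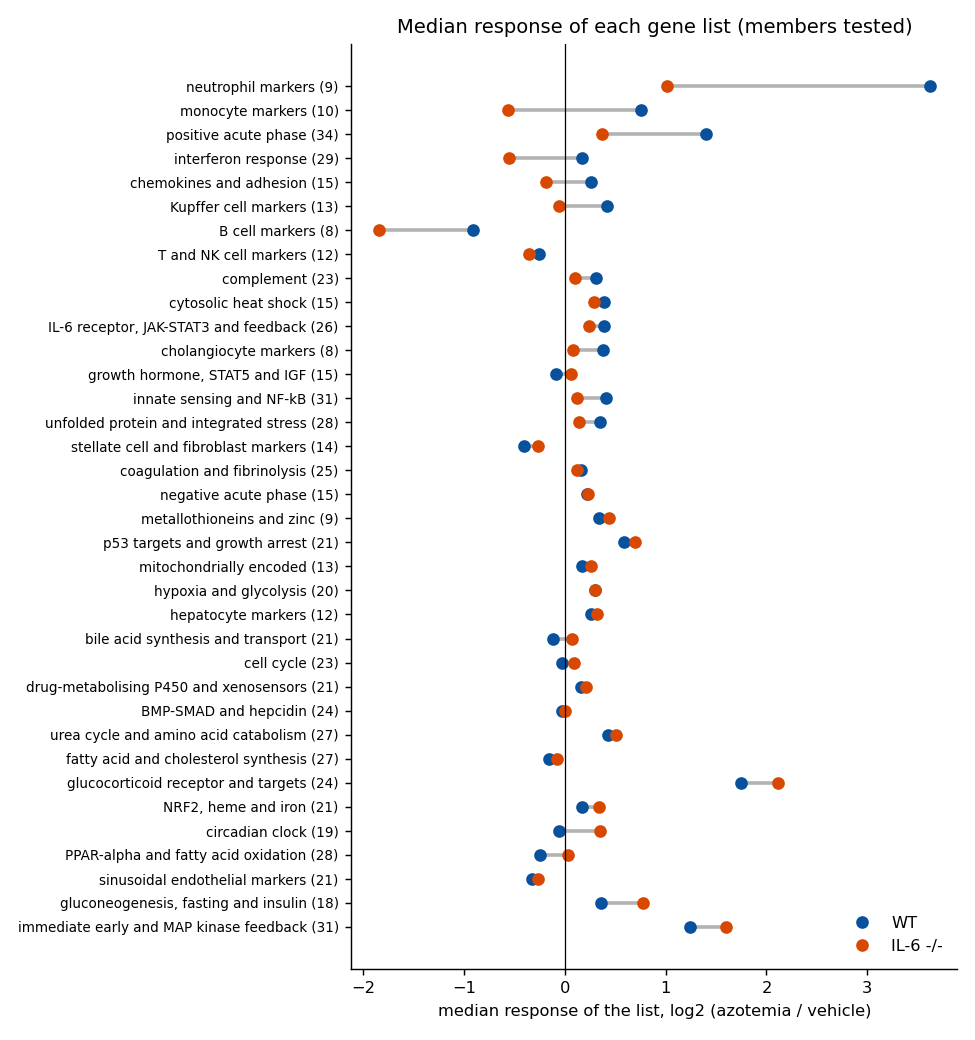
Median response of the members of each gene list with at least 8 tested genes, in WT (blue) and IL-6 -/- liver (orange), as log2 of azotemia over vehicle. The acute phase, neutrophil, monocyte and interferon lists lie lower in the knockout, while the glucocorticoid and immediate early lists lie at least as high.

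Some of the named genes overlap a neighbour. Of the 74 called genes, 13 overlap another tested gene in GENCODE vM21, and the strand setting of the counting is not given in the sources used here, so reads in the overlap cannot be told apart. Among them are Tifa with Ap1ar, Myd88 with Acaa1a and Prg4 with Tpr, whose partners had interactions of -0.20, -0.03 and -0.01 log2 units (adjusted p = 0.83, 0.99 and 0.997). Alpk1, Syt12, Lrrc8a and Nat8f6 also have such a partner.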

How the data were processed

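The values are gene read counts that the authors deposited as 1 table of 55416 genes, and the deposited per-library files hold identical counts. Per the submitters' processing notes, HISAT2 2.2.1, SAMtools 1.13, HTSeq 0.11.3 and the GRCm39 build were used. Between 66.95% and 71.71% of reads were counted in genes and 14.07% to 19.15% were not unique, which bears on close gene copies. Rows that name no gene were left out. With R 4.3.3 and edgeR 4.0.16, one mean per group was fitted by robust quasi-likelihood over all 19 libraries after filterByExpr and TMM scaling, leaving 15570 genes, of which 15542 have a symbol. Contrasts were tested 2-sided and adjusted by Benjamini-Hochberg over all genes at 0.05. The code was tested on simulated counts.

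Genes named are the 12 most negative and 12 most positive called interactions and the 10 largest kept responses, each with a mean of at least 2 CPM in 1 group and not a predicted model, a set of acute phase and IL-6 pathway genes, up to 3 called members of each list, and further genes chosen after their values were seen. A few genes that these rules name are not reported here. The contrast, its lead genes and the gene lists were chosen with earlier results of these data known. DESeq2 1.42.0 and limma-voom 3.58.1, other scalings and filters, a replicate block and leaving out each library were alternatives.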

Additional observations from a re-analysis of the deposited data

Results flagged for a closer look

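The effect of azotemia differed between the genotypes in 74 genes by the interaction test itself, and 46 of these are named in the text. The acute phase members had interactions, in log2 units of the knockout response minus the WT response, of -6.19 for Saa2, -4.67 for Saa1, -4.06 for Lcn2, -4.03 for Orm2, -2.63 for Steap4, -1.93 for Serpina3n, -1.49 for Serpina10, -1.29 for Hpx, -1.29 for Orm1, -1.18 for Itih4, -1.10 for Fgb, -1.09 for Lrg1, -1.09 for Fgg and -1.05 for Fga. Signalling and receptor genes had -3.52 for Tifa, -2.55 for Alpk1, -1.99 for Arid5a, -1.37 for Il17ra, -0.91 for Tnfrsf1a, -0.79 for Il13ra1, -0.75 for Myd88, -0.72 for Ptpn2 and -0.66 for Smad1. Leukocyte genes had -2.74 for S100a8, -2.61 for Ms4a4c and -1.64 for Ms4a6d.

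The other genes lower in the knockout were Syt12 at -3.07, B3galt1 at -2.83, Slc13a5 at -2.71, Sebox at -2.29, Asb2 at -1.98, Cldn14 at -1.75, Zc3h13 at -1.74, Prg4 at -1.73, Slc41a1 at -1.60, Xbp1 at -1.45, Cldn2 at -1.13, Irgm1 at -0.88, Abca1 at -0.77 and Lrrc8a at -0.70. Those higher were Nat8f6 at 2.54, Smad9 at 1.74, Plin5 at 1.24, Txnl4b at 1.08, Ttl at 1.01 and Zfp703 at 0.75.

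In 14 of 318 groups of 4 libraries examined for the named genes, 1 library stood apart from the others by Dixon's criterion, which chance alone meets in about 1 group in 20. In knockout vehicle these were replicate 1 for Saa2 (44.7 CPM, next 14.98), replicate 4 for Cabyr (0.691, next 2.01), Adamts15 (0.691, next 0.390) and Slc41a1 (6.31, next 4.998), and replicate 2 for Agt (899, next 728), Itih4 (1468, next 1335), Myd88 (16.4, next 17.97) and Smad1 (15.3, next 13.9). In WT vehicle they were replicate 2 for Zfp703 (17.3 CPM, next 14.1), replicate 3 for Zc3h13 (11.7, next 13.5), replicate 1 for Iigp1 (252, next 212) and replicate 4 for Acot1 (51.6, next 21.2). In WT azotemia they were replicate 3 for Zc3h13 (62.0 CPM, next 40.8) and replicate 2 for Saa4 (2073, next 1466).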

How the results depend on the processing

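DESeq2 called more genes than edgeR: 176 interactions (144 below WT and 32 above), 56 genotype differences after vehicle, 927 under azotemia, 132 reduced responses (117 rises) and 55 enlarged ones, where enlarged means a larger knockout response in the direction of the interaction. All 74 interactions were among its 176. Limma-voom gave 10 interactions above WT and 21 differences after vehicle, no filter on low counts gave 3 interactions above WT, and a test for changes beyond 1.5-fold gave 17 interactions, 17 below WT and 0 above. With the interval inside 1.5-fold, 651 responses were kept, 344 of them rises. Leaving out 1 library at a time gave 37 to 95 interactions (36 to 86 below WT, 0 to 15 above), 2754 to 3523 WT and 1671 to 2891 knockout responses, 2 to 15 genotype differences after vehicle and 314 to 746 under azotemia, 35 to 80 reduced responses (34 to 75 rises), 4 to 32 enlarged, 766 to 1326 kept (399 to 683 rises) and 9 to 17 acute phase calls. The cause of these shifts was not tested. Upper quartile scaling lowered the share of rises among WT calls from 44.1% to 34.0% and among knockout calls from 48.7% to 35.3%. Same-numbered libraries did not deviate together (correlations of -0.253 to 0.193 over 21 pairs), so the numbers were not taken as pairs, and a fit with a replicate block on the 15 libraries called 66 interactions, 51 of them among the 74. No interaction of a named gene changed sign past the threshold in 24 settings, and 15 of the 46 named calls held in all of them: B3galt1, Itih4, Lcn2, Orm2, Prg4, S100a8, Saa1, Saa2, Serpina10, Serpina3n, Slc41a1, Steap4, Syt12, Tifa and Zc3h13. With 3 knockout azotemia libraries and a median standard error of 0.23 log2 units for the interaction, a missed call does not show equal responses.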

Other observations

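Among lists not described above, of 15 negative acute phase genes, which fall in a classical acute phase, none fell in either genotype, 5 rose in WT and the median interaction was -0.02 log2 units. Of 19 circadian clock genes, 3 rose and 2 fell in WT, 5 rose and 1 fell in the knockout, and the median interaction was 0.21. Of 25 coagulation and fibrinolysis genes outside the fibrinogens, 8 rose and 4 fell in WT, 2 rose and 2 fell in the knockout, and the median interaction was -0.02. Of 5 tested red blood cell markers, 4 rose in WT and none in the knockout, with a median interaction of -1.38. No gene of these 4 lists had an interaction called by edgeR, DESeq2 or limma-voom, with 0, 2, 1 and 4 at an unadjusted p under 0.05. Of all genes tested, 0.475% had an interaction called by edgeR and 8.94% an unadjusted p under 0.05. In WT 9.74% of all genes rose and 12.3% fell, and in the knockout 7.96% rose and 8.38% fell.

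The 11 genes that differed between genotypes after vehicle, named after their values were seen, were led by Abhd1, a hydrolase gene 3.94 log2 units higher in the knockout (adjusted p = 1.7e-13), and AI506816, an uncharacterised gene that was lower at -3.78 log2 units (adjusted p = 3.6e-07). Slc39a4, a zinc importer, stood at -1.18 log2 units (adjusted p = 0.016), and Mup21, a major urinary protein, at 1.09 (adjusted p = 0.011). None of these 4 had a called interaction.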
